A study of Mus musculus with 40 samples.

Results

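Of the genes of the circadian clock, 10 were followed across the mouse cerebral cortex and cerebellum: Per1, Per2, Per3, Cry2, Arntl, Npas2, Nr1d1, Nr1d2, Dbp and Tef. They were chosen by name, as every probe whose gene name on the array equals one of these symbols, which gave 14 probes for 10 genes among 36406 gene names. The 40 one-colour arrays, 1 per sample, fall into 10 groups of 4, and the methods give 4 mice per group. All mice had the C57Bl/6 background. In each region the groups were wild-type mice of 2 months (young) and of 29 months (aged) on the normal diet with 36 mg of alpha-tocopherol/kg, and wild-type mice of 29 months on the vitamin E deficient diet. The other groups were Ttpa-/- mice of 29 months, which lack the gene of the alpha-tocopherol transfer protein, 1 group fed the deficient diet and the other a diet supplemented to 600 mg of alpha-tocopherol/kg. No young Ttpa-/- mice, no Ttpa-/- mice on the normal diet and no wild-type mice on the supplemented diet were analysed here. The hour of the day at which tissue was taken is not given in the sources used here, and clock genes change with that hour, so a difference in hour between groups cannot be told apart from age, diet or genotype.

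The clock of a mammalian cell is a loop of transcription and repression. ARNTL (also called BMAL1) pairs with CLOCK or its relative NPAS2 and switches on the Per and Cry genes through E-boxes, and the PER and CRY proteins then repress that pair. A second loop runs through the nuclear receptors NR1D1 and NR1D2 (REV-ERB alpha and beta), which repress Arntl, and the outputs are carried partly by the PAR bZIP factors DBP and TEF, which bind D-boxes. In such a loop Arntl is high at the hours when Per and Dbp transcripts are low, in brain as in other tissues.

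Of the 10 genes, 9 had an entry in the RefSeq promoter table (GRCm38.p6), with 12 transcription starts, and the 250 bases before each start were searched on both strands for 4 clock motifs. The E-box CACGTG was found before the first start of Per1, not before its second, and before both starts of Tef. It was in 6.02% of all 32851 promoters. The related CACGTT lay before Nr1d1 and Cry2, and in 3.85% of all promoters. The D-box, searched as TTATGTAA and TTACGTAA, occurred at 2 places before Per3 and in 0.931% of all promoters. TAGGTCA and TGGGTCA, which REV-ERB and ROR proteins bind, were in none of the members' windows and in 5.38% of all promoters. The windows of Per1, Per3, Tef, Nr1d1 and Cry2 are shown because these genes hold a motif and have a probe that passed a test below. Of Per1 and Tef the first start is shown. Each is written 5' to 3' on the strand of the gene, with the motif in capitals. A match is a run of letters and says nothing on whether a factor was bound in these samples.
Per1 promoter, plus strand, chr11:69098699-69098948, E-box 166 bases before the start: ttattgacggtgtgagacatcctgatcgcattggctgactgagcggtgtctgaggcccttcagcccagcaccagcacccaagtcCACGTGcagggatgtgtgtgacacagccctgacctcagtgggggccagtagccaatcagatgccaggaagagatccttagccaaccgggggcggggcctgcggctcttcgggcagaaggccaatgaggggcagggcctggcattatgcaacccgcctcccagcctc
Tef promoter, plus strand, chr15:81802423-81802672, E-box 127 bases before the start: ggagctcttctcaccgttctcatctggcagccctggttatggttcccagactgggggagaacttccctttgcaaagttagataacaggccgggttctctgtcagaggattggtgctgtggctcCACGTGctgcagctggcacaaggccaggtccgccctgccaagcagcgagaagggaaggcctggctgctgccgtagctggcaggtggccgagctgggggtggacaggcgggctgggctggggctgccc
Nr1d1 promoter, minus strand, chr11:98775378-98775627, CACGTT read from the other strand as AACGTG 28 bases before the start: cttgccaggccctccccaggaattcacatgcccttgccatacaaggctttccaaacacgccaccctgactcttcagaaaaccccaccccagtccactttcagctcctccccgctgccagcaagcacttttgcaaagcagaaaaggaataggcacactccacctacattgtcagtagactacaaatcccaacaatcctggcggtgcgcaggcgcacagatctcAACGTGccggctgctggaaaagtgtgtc
Cry2 promoter, minus strand, chr2:92434070-92434319, AACGTG 166 bases before the start: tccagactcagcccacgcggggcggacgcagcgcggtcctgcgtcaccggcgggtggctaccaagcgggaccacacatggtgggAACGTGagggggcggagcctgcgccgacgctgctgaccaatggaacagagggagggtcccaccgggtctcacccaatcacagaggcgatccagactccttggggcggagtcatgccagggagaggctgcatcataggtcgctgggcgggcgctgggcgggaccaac
Per3 promoter, minus strand, chr4:151044666-151044915, D-boxes 205 and 158 bases before the start: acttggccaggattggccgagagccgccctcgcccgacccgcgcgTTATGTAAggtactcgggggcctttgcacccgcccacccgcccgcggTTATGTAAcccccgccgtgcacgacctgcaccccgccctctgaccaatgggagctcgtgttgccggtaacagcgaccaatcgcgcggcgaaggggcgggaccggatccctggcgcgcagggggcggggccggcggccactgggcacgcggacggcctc

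Levels are given on the log2 scale relative to the 75th percentile of each array, so that 0 is that percentile. Because probes differ in brightness, a level is compared only between samples and never between genes. Of the 10 members, 9 were well above background on all 40 arrays. Npas2 was above background on 23 arrays, namely on all 20 of the cortex and on 3 of the 20 of the cerebellum, all 3 of them from supplemented Ttpa-/- mice. For a gene with several probes the brightest on average is reported, and other probes are given where they bear on a call or disagree with it. The probes of Per1 (mm9, chr11:68923364-68923423), Per2 (mm9, chr1:93313046-93313105), Arntl (mm9, chr7:120457261-120457320) and Dbp (mm9, chr7:52965461-52965520) were mapped by the files on mm9, and no annotation of that build was used to place them within exons.

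Cortex and cerebellum differed in their markers as their labels say. The summed linear signal of 5 markers of cortical projection neurons was 38.1 to 55.5 in the cortex and 1.75 to 3.57 in the cerebellum, in units of the array's 75th percentile, and that of 5 granule cell markers was 2.53 to 4.80 and 172 to 266. Ttpa was above background on all arrays of the 3 wild-type groups of the cerebellum and on 1 of 8 arrays of the Ttpa-/- groups there. In the cortex it was above background on 1 of 20 arrays, so the knockout could be checked in the cerebellum only. The arrays that stand apart for the clock genes are 2, replicate 4 of the young cortex and replicate 4 of the young cerebellum. Young replicate 4 lay outside the range of replicates 1 to 3, on the side of the aged mean, for 10 of 10 members in the cortex and for 9 of 9 tested members in the cerebellum. The counts of members called with the young groups are therefore given with and without these arrays, a choice made after their values were seen. The same cortex array had a choroid plexus marker sum of 2.87, against 116 to 134 in young cortex replicates 1 to 3. Such low sums were not confined to it. Aged wild-type cortex replicate 4 on the normal diet was at 4.82 (the others 52.8 to 148). Deficient Ttpa-/- cortex replicate 1 was at 12.5 (the others 169 to 178). The part of choroid plexus in the clock values was not tested. The mean correlation of an array with the others of its group was 0.985 to 0.996. Each group lay on 1 of 5 slides, and the compared groups shared a slide for ageing in the cortex, for the diet of wild-type mice in the cerebellum and for the diet of Ttpa-/- mice in the cerebellum. In every other comparison slide and condition cannot be told apart.

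**Figure D1:**
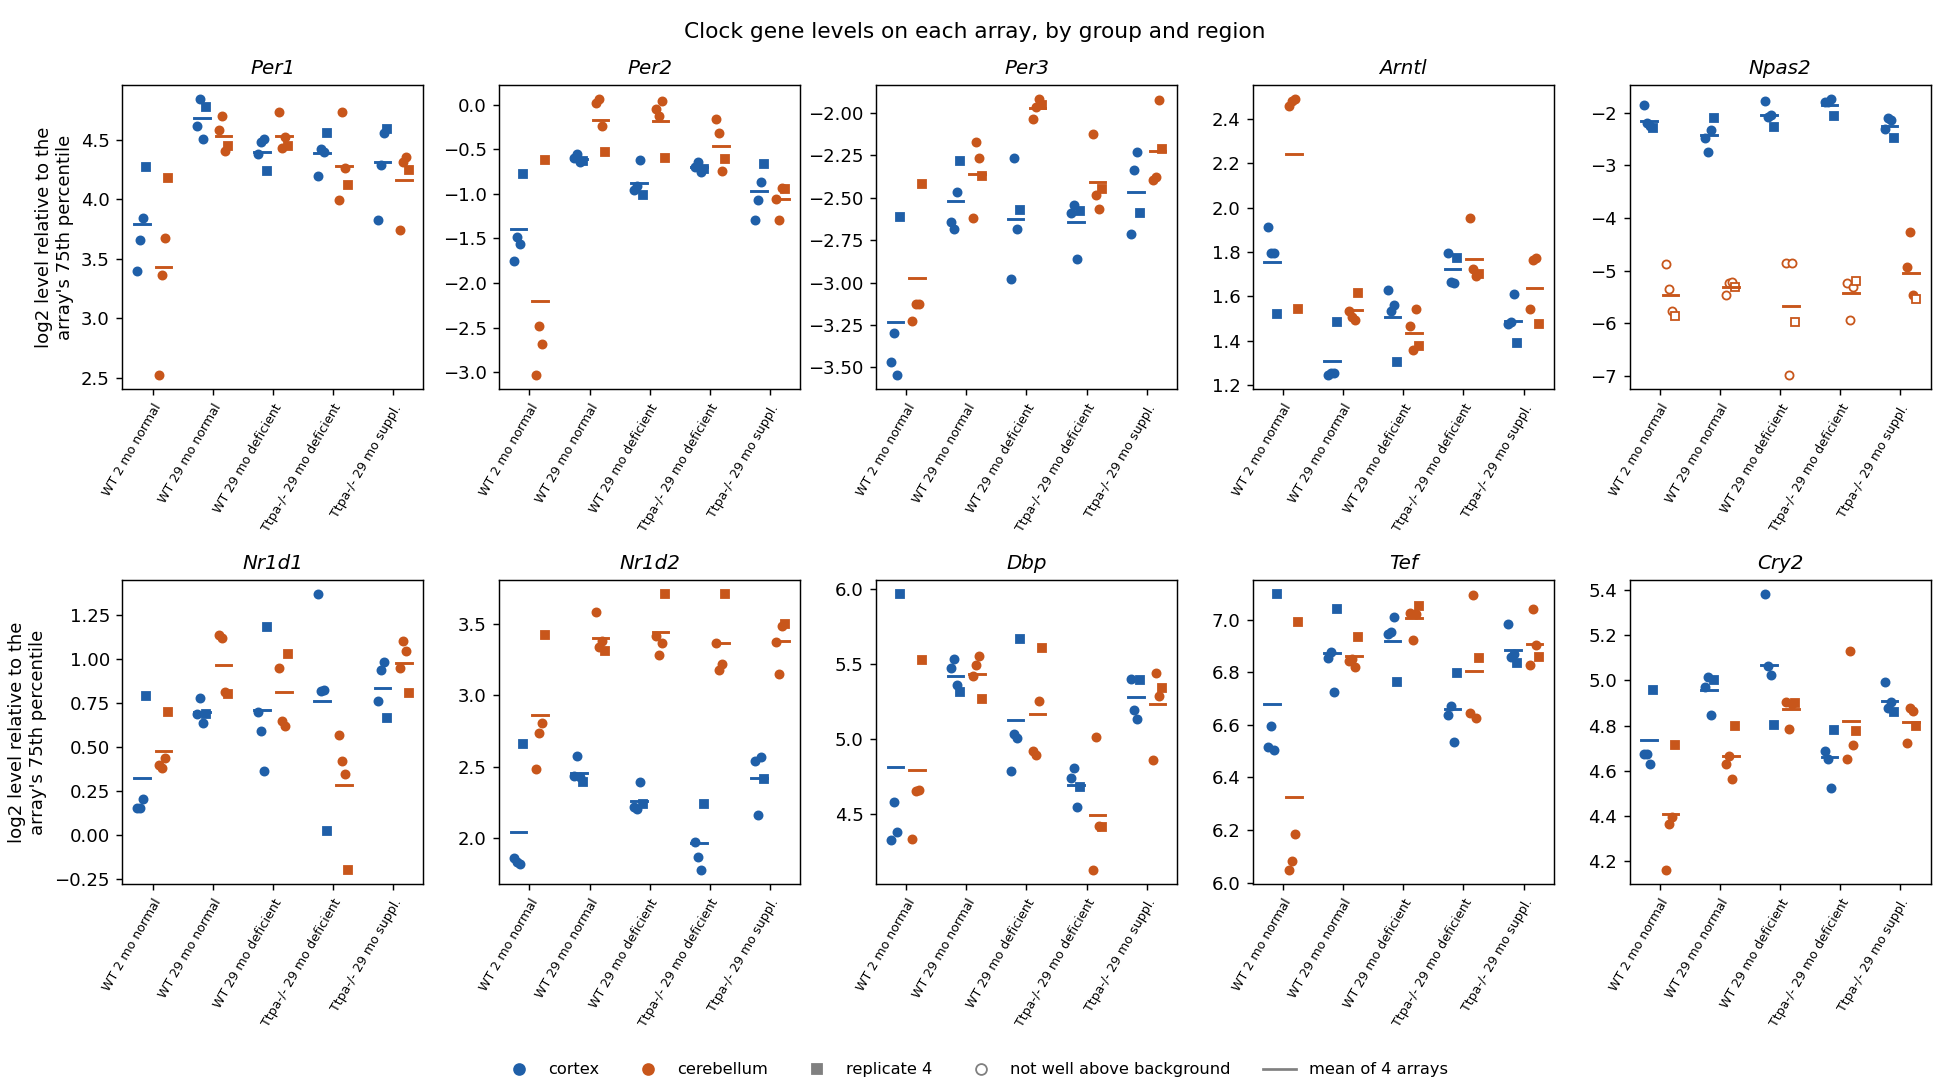
Level of each clock gene on each of the 40 arrays, as log2 signal relative to the array's 75th percentile (y axis), by group (x axis) and region (colour). Points are arrays, squares are replicate 4, open points are not well above background and lines are means of 4. In the young groups the square is displaced from the other 3 toward the aged mean or past it, except for Npas2 in the cerebellum, at background there. Dbp in the cortex is an example, at 5.97 against 4.32 to 4.58 for the other young and 5.31 to 5.53 for the aged arrays on the normal diet.

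The plot of levels by group shows how the spread and the position of the groups differ between genes. For Per1, Per2, Per3, Arntl, Nr1d2, Dbp and Tef the group with the largest SD is a young one, whereas for Nr1d1, Cry2 and Npas2 it is a group of 29 months. Some groups of 29 months also stand apart from the others, as Arntl does in the cortex of deficient Ttpa-/- mice and Per2 in the cerebellum of supplemented ones.

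To ask what ageing did to these genes, aged and young wild-type mice, all fed the normal diet, were compared. In the cerebellum Per1, Per2 and Per3 were up-regulated and Arntl was down-regulated. A gene was called when limma's Benjamini-Hochberg adjusted p over all tested probes was under 0.05 and the fold change was over 1.5. Of the 9 members tested, 4 were called, against 5.03% of all 30627 probes tested, and 6 passed on adjusted p alone, against 11% of all. The median change of the members was 0.54, beside -0.01 for all probes tested.

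Per2, a repressor of the core loop, had the largest change of the members. Its levels in the young cerebellum were -3.04, -2.49, -2.69 and -0.62, and in the aged cerebellum 0.02, 0.07, -0.24 and -0.53. The groups did not overlap, but the young replicate 4 lay within 0.1 of the lowest aged array. The log2 change was 2.04 (SE 0.29), a 4.10-fold rise with an adjusted p of 4.97e-06.

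Per1, the paralogue of Per2 that also responds to light and hormones, was at 2.52, 3.36, 3.68 and 4.18 in the young cerebellum and at 4.58, 4.70, 4.40 and 4.44 in the aged. All aged arrays were above all young arrays, with a log2 change of 1.10 (SE 0.22) and an adjusted p of 0.000872. Per3, the third Period gene, was at -3.22, -3.13, -3.13 and -2.42 in the young and at -2.62, -2.17, -2.27 and -2.37 in the aged, so that young replicate 4 overlapped the aged arrays. Its log2 change was 0.62 (SE 0.18, adjusted p = 0.0197).

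Arntl, the activator of the loop, moved the other way. It was at 2.46, 2.48, 2.49 and 1.54 in the young cerebellum and at 1.53, 1.51, 1.49 and 1.62 in the aged, where young replicate 4 was again within the aged range. The log2 change was -0.71 (SE 0.13, adjusted p = 0.000319). Of the genes under the fold change threshold, Tef rose by 0.54 (adjusted p = 0.0100) and Nr1d2 by 0.54 (adjusted p = 0.0300). Tef was at 6.05, 6.08, 6.18 and 6.99 in the young and at 6.82 to 6.94 in the aged, and Nr1d2 at 2.48, 2.74, 2.81 and 3.42 against 3.31 to 3.58. The second probe of Nr1d2 was called, with a change of 0.68 and an adjusted p of 0.00177.

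Dbp, Nr1d1 and Cry2 did not pass in the cerebellum. Dbp was at 4.33, 4.65, 4.66 and 5.52 in the young and at 5.27 to 5.56 in the aged, a difference of 0.64 (SE 0.26, adjusted p = 0.114). Nr1d1 differed by 0.49 (adjusted p = 0.112) with no overlap between the groups, and Cry2, the second cryptochrome, by 0.26 (adjusted p = 0.135), while its second probe differed by -0.05 there and by -0.16 in the cortex (adjusted p = 0.956 and 0.858). The 3 members without overlap were Per1, Per2 and Nr1d1, and the groups did not overlap for 19.1% of all probes tested. Npas2 was below background in both groups and was not tested.

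In the cortex the same comparison called 2 of 10 members, Per1 and Per3, against 2.1% of all 28043 probes tested. On adjusted p alone 3 passed, against 4.15% of all. Per1 was at 3.40, 3.65, 3.84 and 4.27 in the young cortex and at 4.62, 4.85, 4.51 and 4.78 in the aged, without overlap, and rose by 0.90 on the log2 scale (SE 0.22, adjusted p = 0.0147). Per3 was at -3.47, -3.29, -3.55 and -2.61 in the young and at -2.64, -2.68, -2.47 and -2.28 in the aged, and rose by 0.71 (SE 0.18, adjusted p = 0.0145). Arntl fell by 0.45 (adjusted p = 0.0471), which is under the fold change threshold, from 1.91, 1.80, 1.80 and 1.52 to 1.24, 1.25, 1.26 and 1.49.

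Per2 and Dbp had the widest young groups of the cortex. Per2 was at -1.75, -1.48, -1.56 and -0.78 in the young and at -0.55 to -0.64 in the aged, a difference of 0.79 (SE 0.29) whose adjusted p was 0.137 although the groups did not overlap. Dbp was at 4.32, 4.58, 4.38 and 5.97 in the young, and the aged arrays at 5.31 to 5.53 lay between, with a difference of 0.61 (SE 0.26, adjusted p = 0.234). The differences of the remaining members were 0.41 for Nr1d2, 0.37 for Nr1d1, 0.22 for Cry2, 0.19 for Tef and -0.26 for Npas2, the partner of ARNTL in forebrain, with adjusted p of 0.188 to 0.785. Per1, Per2 and Arntl were the 3 members without overlap, as were 14% of all probes tested, and the median change of the 10 was 0.39, beside -0.03 for all probes.

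The calls depended on single arrays and on how the spread was estimated. In the cortex Per1 was lost without young replicate 1, young replicate 2 or aged replicate 2 (adjusted p = 0.0785, 0.0531 and 0.0573) and Per3 without young replicate 1, young replicate 3 or aged replicate 4 (0.0675, 0.0715 and 0.0545), and in the cerebellum Per3 was lost without any one of young replicates 1 to 3 or aged replicates 2 and 3 (0.0558 to 0.0839). Per3 in the cerebellum was also lost with normexp background correction (0.35) and quantile normalization (0.58), where its fold change fell short, and with median scaling (adjusted p = 0.161), and Per1 and Per3 in the cortex were lost with median scaling (0.103 and 0.145). When the 2 compared groups were fitted alone, 0 members were called in either region by limma. The genes named above as called then had an adjusted p of 0.0563 to 0.165. With an unadjusted p and the fold change, in the fit of all groups, 4 in the cortex and 5 in the cerebellum passed. No share of all probes is given at that rule, so these counts are not read as a result about the members.

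Without replicate 4 of both young groups, more members were called. In the cortex they were Per1 (1.06), Per2 (0.99), Per3 (0.92), Dbp (0.996) and Nr1d2 (0.62), 5 of 10 against 1.99% of all probes, with adjusted p of 0.000136 to 0.00296. In the cerebellum they were Per2 (2.57), Per1 (1.35), Dbp (0.89), Per3 (0.80), Tef (0.76), Nr1d2 (0.72) and Arntl (-0.94), 7 of 9 against 6.1% of all probes, with adjusted p of 1.65e-12 to 0.00120. Each value in brackets is a log2 change from young to aged. All 4 aged arrays lay outside the range of young replicates 1 to 3 for 9 of 10 members in the cortex, with Npas2 the exception, and for 9 of 9 in the cerebellum. These 3 young arrays were set against the aged ones after the fourth had been seen to differ, so the larger counts are a description of the arrays and no independent evidence.

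**Figure D2:**
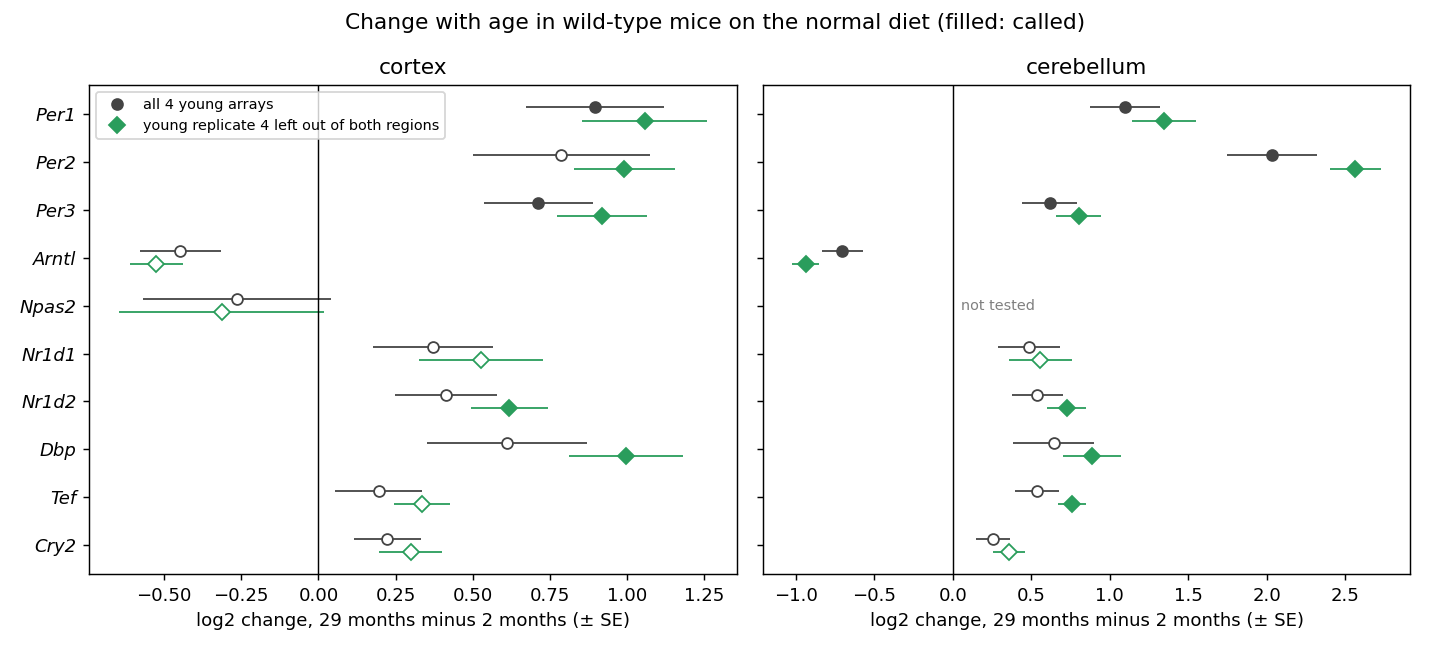
Log2 change from 2 to 29 months (x axis, with standard error) of each clock gene in wild-type mice on the normal diet, in the cortex (left) and the cerebellum (right), with all 4 young arrays (circles) or without young replicate 4 of both regions (diamonds). Filled symbols were called, and Npas2 was not tested in the cerebellum. Per2 in the cerebellum has the largest change, 2.04 with all arrays and 2.57 without replicate 4.

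In the cerebellum the young and aged arrays lay on different slides and in the cortex on the same one. The plot of changes with age shows the Period genes to the right of 0 and Arntl to the left in both regions. Whether the regions differed was tested as an interaction, and 0 of 10 members passed, against 1.83% of all probes tested. Npas2 is among the 10 only through the cortex and was at background in the wild-type cerebellum, so its interaction cannot be read, here or in the tests of diet and genotype below. At an unadjusted p under 0.05 it was 1 of 10, with no share of all probes beside it. That member was Per2, whose change was smaller in the cortex by 1.25 on the log2 scale (adjusted p = 0.130). Without young replicate 4 of both regions this difference was -1.58 (adjusted p = 0.000126, with 2.44% of all probes passing). Without the young cerebellum replicate 4 alone it was -1.78 (adjusted p = 6.62e-05), and Arntl (0.49, adjusted p = 0.0260) and Tef (-0.56, adjusted p = 0.0352) then passed as well.

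Other genes of the clock, taken from lists that were put together with earlier results of these data known, were described beside the members. Of 12 other genes of the transcription loop, 3 rose with age in each region and 0 fell. Bhlhe41, a repressor that competes for E-boxes, rose by 0.74 in the cortex (adjusted p = 0.00186) and by 0.61 in the cerebellum (adjusted p = 0.00500). Gm129, now named Ciart, another repressor of the ARNTL pair, rose by 1.06 (adjusted p = 0.0295) and by 1.33 (adjusted p = 0.00190). Bhlhe40 rose by 1.10 in the cortex (adjusted p = 8.19e-06), and Hlf, the third PAR bZIP factor, by 0.68 in the cerebellum (adjusted p = 0.00133).

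Without replicate 4 of both young groups Cry1 was called as well in the cortex (0.66, adjusted p = 0.00603). For the genes looked at array by array, young replicate 4 was again the one nearest to the aged arrays. Gm129 was at -2.05, -2.14, -1.68 and -0.28 in the young cerebellum and at -0.34 to -0.02 in the aged, and Bhlhe40 was at 0.69, 1.02, 1.10 and 1.70 in the young cortex and at 2.10 to 2.38 in the aged. Of 7 kinases and ubiquitin ligases that act on PER and CRY proteins, 0 were called with age in either region, and the same held for 4 rhythmic output genes. The median changes were 0.00 and 0.32 for the loop genes, 0.01 and 0.01 for the kinases and ligases, and 0.12 and 0.34 for the outputs, in the cortex and the cerebellum.

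Some markers of other states and cells moved with age in the same arrays. Of 8 glucocorticoid-responsive genes 0 were called in the cortex (median 0.46) and 2 rose in the cerebellum (median 0.55), Pdk4 by 0.81 (adjusted p = 0.00544) and Zbtb16 by 1.82 (adjusted p = 0.000806). Of 10 immediate early genes, Fosb rose by 0.98 in the cortex (adjusted p = 0.00183, list median 0.42) and Egr2 by 1.97 in the cerebellum (adjusted p = 0.00520, list median 0.27). Without replicate 4 of both young groups Pdk4, Zbtb16, Fosb and Egr2 were called again in the same regions. Tsc22d3, another glucocorticoid-responsive gene, was then called too in the cerebellum (0.70, adjusted p = 0.0294). The cell markers that follow are given with all arrays only. In the cerebellum 4 of 5 microglia markers, 2 of 3 blood markers, 2 of 6 striatum markers and 1 of 5 astrocyte markers rose, and 2 of 6 choroid plexus markers fell. The list medians were 0.84, 2.58, 0.47 over the 4 striatum markers tested, 0.15 and -1.43. In the cortex 2 of 6 striatum markers fell (median -0.83) and 1 of 5 astrocyte markers rose (median 0.09), and the microglia, blood and choroid plexus lists had 0 calls (0.02, 2.67 and -0.33). The microglia sum was 11.3 to 15.3 in the young and 23.1 to 26.8 in the aged cerebellum, and the choroid plexus sum was 8.82 to 246 in the young and below all of these in the aged, where the lowest was 6.16. The markers of cortical projection neurons, granule cells, Purkinje cells, oligodendrocytes and endothelium had 0 calls with age in either region, with medians of -0.52 to 0.12. In tissue RNA, fewer cells of a type and less RNA per cell cannot be told apart, and the part of these lists in the clock values was not tested.

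To ask what vitamin E deficiency with loss of Ttpa did to the clock genes in old mice, deficient Ttpa-/- mice were set against the aged wild-type mice fed normally. Dbp, a transcription factor and output of the clock, was down-regulated in both regions. In the cortex it was the only member called of 10, against 4.76% of all 28913 probes, and in the cerebellum 2 of 9 were called, Dbp and Nr1d1, against 4.46% of all 30604 probes. The median change of the members tested, -0.17 and -0.06, stood beside -0.02 for all probes in each region.

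Dbp in the cortex was at 5.48, 5.53, 5.36 and 5.31 in wild-type mice and at 4.73, 4.80, 4.54 and 4.68 in deficient Ttpa-/- mice, without overlap. It fell by 0.73 (SE 0.26, adjusted p = 0.0450). In the cerebellum it was at 5.42, 5.49, 5.56 and 5.27 and at 4.12, 5.01, 4.41 and 4.41, also without overlap, and fell by 0.95 (SE 0.26, adjusted p = 0.0144). The second Dbp probe fell by 0.75 (adjusted p = 0.0304) and by 1.07 (adjusted p = 0.00421).

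Nr1d1 in the cerebellum was at 1.13, 1.12, 0.81 and 0.80 in wild-type mice and at 0.57, 0.42, 0.34 and -0.20 in deficient Ttpa-/- mice, with a log2 change of -0.68 (SE 0.19, adjusted p = 0.0187). In the cortex its 4 values in deficient Ttpa-/- mice were spread from 0.02 to 1.37, and its difference was 0.06 (adjusted p = 0.863). On adjusted p alone 4 members passed in the cortex, against 18.9% of all probes, and 2 in the cerebellum, against 13.2%. In the cortex these were Dbp, Nr1d2 (-0.49, adjusted p = 0.0338), Cry2 (-0.30, adjusted p = 0.0495) and Arntl (0.41, adjusted p = 0.0262). The Arntl values were 1.66 to 1.79 in deficient Ttpa-/- mice against 1.24 to 1.49 in wild-type mice, and those of Nr1d2 were 1.78 to 2.24 against 2.39 to 2.58. The second probes did not pass, with -0.26 for Nr1d2 (adjusted p = 0.217) and -0.36 for Cry2 (adjusted p = 0.325).

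The 3 calls sat near the threshold. Leaving out any 1 of the 8 arrays took the Dbp call in the cortex, with adjusted p of 0.0573 to 0.111. In the cerebellum Dbp was lost without Ttpa-/- replicate 1 (-0.82, adjusted p = 0.0517) and Nr1d1 without wild-type replicate 1 (-0.63, adjusted p = 0.0616), wild-type replicate 2 (-0.63, 0.0554) or Ttpa-/- replicate 4 (-0.52, 0.0937), and with median scaling all 3 were lost (adjusted p = 0.0832 to 0.226). Of the other lists, 0 of 12 loop genes (medians -0.13 and 0.05), 0 of 7 kinases and ligases (-0.20 and 0.09), 0 of 4 outputs (-0.06 and -0.16), 0 of 8 glucocorticoid-responsive genes (-0.15 and 0.24) and 0 of 10 immediate early genes (0.14 and 0.16) were called in the cortex or the cerebellum. The glucocorticoid sums in the cerebellum were 46.1, 119, 82.7 and 88.9 in deficient Ttpa-/- mice and 60.1 to 92.1 in wild-type mice. Markers of cells moved too, since 2 of 5 oligodendrocyte markers fell in the cerebellum (median -0.60) and 2 of 6 striatum markers rose in the cortex (median 0.60). In the cerebellum 1 of 4 Purkinje, 1 of 5 astrocyte and 1 of 5 microglia markers fell as well (medians -0.05, 0.02 and -0.05), and in the cortex 1 of 4 Purkinje markers fell (median -0.37) and 1 of 5 markers of cortical projection neurons rose (median 0.05). The choroid plexus, endothelium, blood and granule cell lists had 0 calls in either region, and the part of these cells in the clock values was not tested.

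The same wild-type arrays of 29 months on the normal diet serve as the reference here and as the aged group above, so the opposite directions of Dbp and Arntl in the 2 comparisons are not independent. For Dbp in the cerebellum the group means were 4.79 in young, 5.43 in aged and 4.49 in deficient Ttpa-/- mice. For Arntl in the cortex they were 1.76, 1.31 and 1.72.

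**Figure D3:**
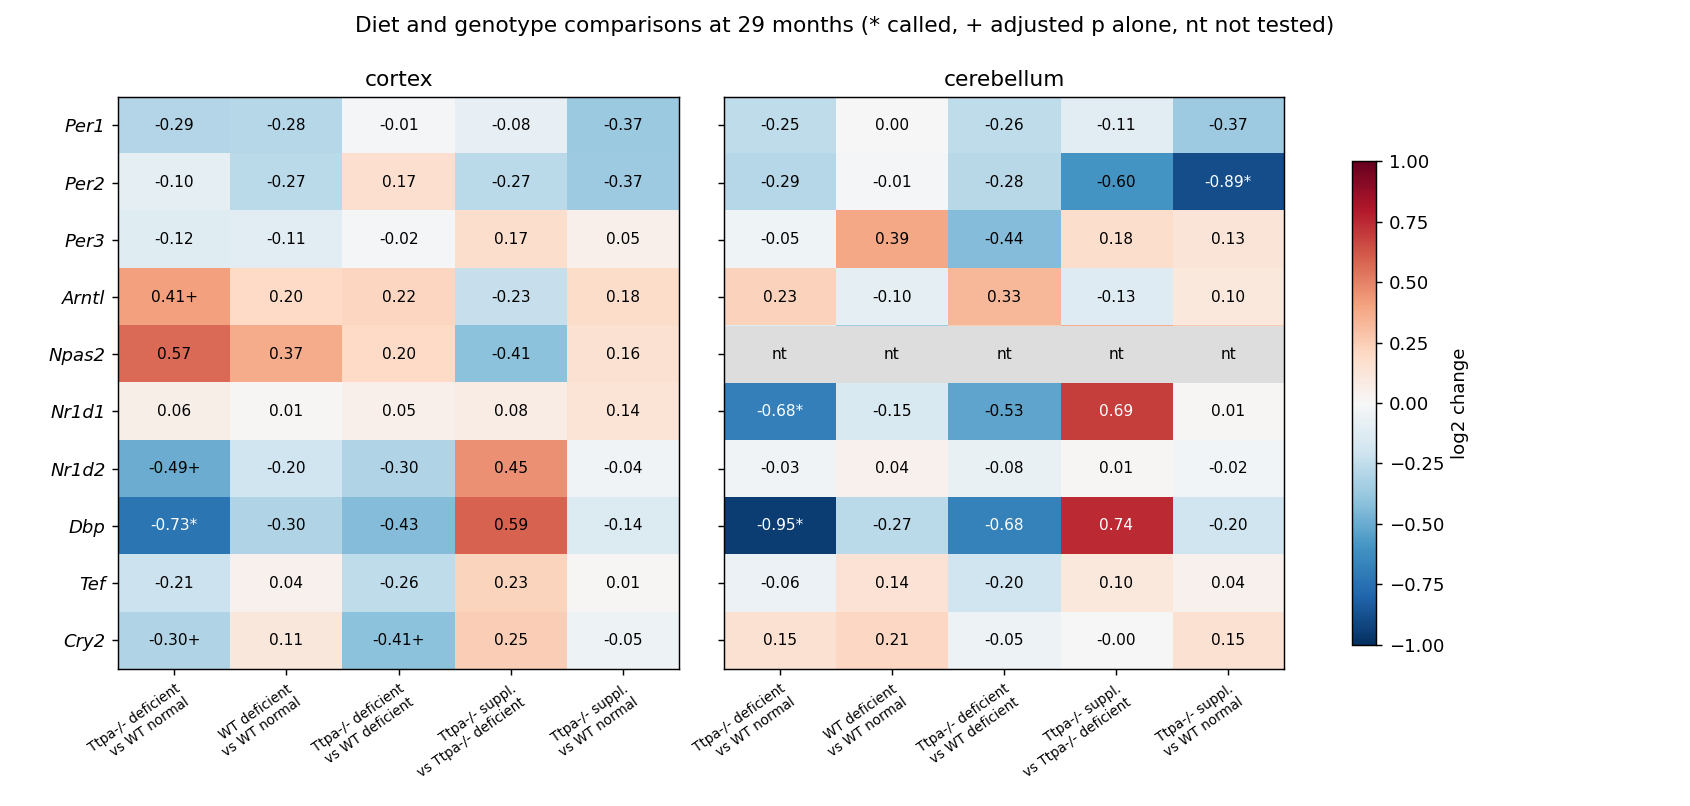
Log2 change of each clock gene (rows) in 5 comparisons of the groups of 29 months (columns), in the cortex (left) and the cerebellum (right), with colour from -1 to 1. A star marks a call, a plus an adjusted p under 0.05 alone, and nt a probe not tested. Dbp is below 0 in both regions in each column except supplemented against deficient Ttpa-/- mice, and its changes of -0.73 and -0.95 are called.

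The heat maps of changes among the groups of 29 months show few calls, 3 in the first column and 1 (Per2 in the cerebellum) in the column of supplemented Ttpa-/- against normal wild-type mice. The deficient diet alone, in wild-type mice, gave 0 calls among the members in either region, against 0.223% of all probes in the cortex and 1.27% in the cerebellum. At an unadjusted p under 0.05 in limma it was 0 of 10 in the cortex and 1 of 9 in the cerebellum, with no share of all probes beside them. The 1 was Per3, with a difference of 0.39 (adjusted p = 0.199). The second Cry2 probe in the cerebellum, which the count leaves out, differed by 0.77 without overlap (adjusted p = 0.0630), against 0.21 for the first (adjusted p = 0.268). Per3 was at -2.62, -2.17, -2.27 and -2.37 on the normal diet and at -2.04, -1.97, -1.92 and -1.95 on the deficient one. Dbp was lower on the deficient diet by 0.30 in the cortex (adjusted p = 0.602) and by 0.27 in the cerebellum (adjusted p = 0.578), and the deficient arrays at 4.79 to 5.67 and 4.89 to 5.60 overlapped the normal ones. The other clock lists and the immediate early list had 0 calls as well. The glucocorticoid-responsive list also had 0 calls, with sums of 120, 96.2, 86.2 and 51.3 in the deficient cortex against 62.5 to 70.4 on the normal diet, and of 57.3 to 136 against 60.1 to 92.1 in the cerebellum.

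On the deficient diet, Ttpa-/- mice were then compared with wild-type mice, to ask about the genotype at the same diet. The groups lay on different slides in both regions. Of the members 0 were called in either region, against 3.06% of all probes in the cortex and 4.96% in the cerebellum. On adjusted p alone Cry2 passed in the cortex, 1 of 10 against 12.9% of all, and 0 of 9 did in the cerebellum, against 12.8% of all. At an unadjusted p under 0.05 in limma Cry2 was again the only member of 10 in the cortex, with no share of all probes beside it. Cry2 was at 5.38, 5.06, 5.02 and 4.80 in wild-type and at 4.69, 4.65, 4.52 and 4.78 in Ttpa-/- mice, a difference of -0.41 with this probe (SE 0.11, adjusted p = 0.0130). The second Cry2 probe differed by -0.0096 (adjusted p = 0.986), so no direction is given for the gene.

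In the cerebellum 4 of 9 members had an unadjusted p under 0.05. They were Dbp (-0.68, adjusted p = 0.0807), Nr1d1 (-0.53, adjusted p = 0.0694), Per3 (-0.44, adjusted p = 0.101) and Arntl (0.33, adjusted p = 0.0948). The share of all probes at that unadjusted threshold is not given here, and it cannot be below the 12.8% that passed the adjusted p. The count is therefore not read as a result about the members. Dbp was called without Ttpa-/- replicate 2 (-0.85, adjusted p = 0.0395), and its second probe was called with all arrays (-0.83, adjusted p = 0.0231). The second Cry2 probe, annotated to another transcript entry, differed in the cerebellum by -0.79 (adjusted p = 0.0312) and the first by -0.05 (adjusted p = 0.781), so the probes disagreed there too. Among the other clock genes Gm129 fell in the cortex by 0.86 (adjusted p = 0.0449) and Cirbp, a cold-inducible RNA-binding protein with a rhythm, fell in the cerebellum by 0.79 (adjusted p = 0.0106). Fosb rose in the cortex by 0.85 (adjusted p = 0.00519).

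The supplemented diet was set against the deficient one within Ttpa-/- mice. Again 0 members were called in either region, against 3.31% of all probes in the cortex and 0.343% in the cerebellum. At an unadjusted p under 0.05 in limma it was 3 of 10 in the cortex and 3 of 9 in the cerebellum, with no share of all probes beside them. These counts are not read as a result about the members. Nr1d1 in the cerebellum was at 0.95, 1.10, 1.04 and 0.80 on the supplemented diet, above all 4 deficient arrays, with a difference of 0.69 (SE 0.19, adjusted p = 0.0880). Dbp was at 4.86, 5.44, 5.29 and 5.34 there, a difference of 0.74 (SE 0.26, adjusted p = 0.196), and Per2 differed by -0.60 (adjusted p = 0.414). In the cortex the 3 were Dbp (0.59, adjusted p = 0.126), Nr1d2 (0.45, adjusted p = 0.0610) and Cry2 (0.25, adjusted p = 0.125). The supplemented and deficient arrays of the cerebellum shared a slide and those of the cortex did not. Fosb in the cortex fell by 0.91 (adjusted p = 0.00282) and Npas4 in the cerebellum by 1.603 (adjusted p = 0.00855), and 0 of the 12 loop genes, 7 kinases and ligases and 4 outputs were called in either region.

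Supplemented Ttpa-/- mice were last compared with the normally fed wild-type mice of the same age. In the cortex 0 of 10 members were called, against 0.092% of all probes. There 0 had an unadjusted p under 0.05 in limma, with no share of all probes beside it. In the cerebellum Per2 was called, 1 of 9 against 4.91% of all. Its levels were -1.06, -1.29, -0.93 and -0.95 in supplemented Ttpa-/- mice and 0.02, 0.07, -0.24 and -0.53 in wild-type mice, without overlap, and it fell by 0.89 (SE 0.29, adjusted p = 0.0348). The call was lost without any one of wild-type replicates 1 to 3 or supplemented replicates 1, 2 and 4 (adjusted p = 0.0558 to 0.0978), and with no filter on dim probes (0.0556). Dbp and Nr1d1 differed by -0.20 (adjusted p = 0.663) and 0.01 (adjusted p = 0.982) in this comparison. Cirbp rose in the cerebellum by 0.61 (adjusted p = 0.0443) and Npas4 fell by 1.33 (adjusted p = 0.00510).

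Whether these 5 effects differed between the regions was tested as interactions. In each of them 0 of 10 members passed, and at an unadjusted p under 0.05 in limma the counts were 2, 0, 2, 1 and 0 in the order given next. The shares that follow are those passing the adjusted p, and none is given for the unadjusted counts. Those counts are not read as a result about the members. The share of all probes passing was 7.04% for deficient Ttpa-/- against normal wild-type mice, 0.0126% for the diet in wild-type mice, 1.14% for the genotype on the deficient diet, 0.0567% for the diet in Ttpa-/- mice and 1.19% for supplemented Ttpa-/- against normal wild-type mice. Nr1d1 and Cry2 came nearest. For deficient Ttpa-/- against normal wild-type mice, the cortex minus cerebellum difference was 0.74 for Nr1d1 (adjusted p = 0.0954) and -0.45 for Cry2 (adjusted p = 0.0644), and without cortex Ttpa-/- replicate 4 both passed (0.99, adjusted p = 0.00794, and -0.49, adjusted p = 0.0406). The second Cry2 probe, which the counts leave out, gave -0.34 with all arrays (adjusted p = 0.607). For the genotype on the deficient diet the first probe gave -0.35 (adjusted p = 0.204) and the second 0.78 (adjusted p = 0.220), so the probes disagreed. For the diet in wild-type mice the second probe gave -1.12 (adjusted p = 0.202). Without deficient Ttpa-/- cortex replicate 4 Nr1d1 also passed for the genotype (0.82, adjusted p = 0.0487) and for the diet in Ttpa-/- mice (-0.86, adjusted p = 0.0405). These Nr1d1 tests share the deficient Ttpa-/- arrays, so they are not separate events. Without any other single array Nr1d1 passed in none of them. Cry2 passed for deficient Ttpa-/- against normal wild-type mice without deficient Ttpa-/- cerebellum replicate 1 too (-0.51, adjusted p = 0.0400). The paralogue Cry1, which is no member, passed for the first effect (-0.97, adjusted p = 0.00654) and for the genotype (-0.90, adjusted p = 0.0349), and Csnk1d (-0.36, adjusted p = 0.0476), Fbxw11 (-0.36, adjusted p = 0.0456) and Usp2 (-0.58, adjusted p = 0.0374) passed for the first.

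The 2 regions were also compared directly in wild-type mice on the normal diet. Npas2 was the member that set them apart most, as it was above background on every cortex array and on no wild-type cerebellum array. It was at -1.86, -2.19, -2.25 and -2.30 in the young cortex, at least 6.18-fold higher than in the young cerebellum. In the aged cortex it was at -2.48, -2.75, -2.33 and -2.10, at least 6.16-fold higher than in the aged cerebellum. These bounds use the lowest signal that was well above background on each array for the cerebellum. Npas2 entered these tests only through the cortex, so its p and its calls are not read as evidence. Nr1d2 was lower in the cortex at both ages, by 0.82 at 2 months (adjusted p = 7.23e-05) and by 0.94 at 29 months (adjusted p = 1.17e-05). At 29 months its values were 2.39 to 2.58 in the cortex and 3.31 to 3.58 in the cerebellum, and its second probe was called at both ages as well.

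Calls between regions were common across the arrays, so the counts say little about the members. At 2 months 3 of 10 were called against 38.4% of all 30203 probes, and 6 passed on adjusted p alone against 62.5%. At 29 months 2 of 10 were called against 33.6% of all 30859 probes, and 3 passed against 56.4%. All of these counts include Npas2, which entered the tests only through the cortex. The third call at 2 months was Per2, higher in the cortex by 0.81 (adjusted p = 0.0144), and it was lost without young cortex replicate 4 (0.61, adjusted p = 0.0803), young cerebellum replicate 1 (0.54, adjusted p = 0.106) or young cerebellum replicate 3 (0.65, adjusted p = 0.0649). Without replicate 4 of both regions it was 1.14 (adjusted p = 1.78e-06), Arntl was then called as well (-0.64, adjusted p = 6.53e-07), and 4 of 10 were called against 36.9% of all. At 29 months the difference of Per2 was -0.44 (adjusted p = 0.200). Cry2 was higher in the cortex by 0.33 and 0.29 with its first probe (adjusted p = 0.00945 and 0.0206), and lower by 0.84 and 0.95 with its second (adjusted p = 0.00390 and 0.00149), so no direction is given for the gene.

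Of the 12 other loop genes several differed between the regions, as did a large share of all probes. At 2 months 7 of 12 were called, beside the 38.4% of all probes given above, among them the nuclear receptors Rora (-2.08) and Rorb (2.23) and also Cry1 (-1.63), Nfil3 (-1.04), Timeless (-1.05) and Hlf (1.09). At 29 months the count was also 7 of 12, beside 33.6% of all, among them Rora (-1.85), Rorb (1.47), Cry1 (-1.40), Nfil3 (-0.79), Timeless (-0.95) and Bhlhe40 (0.83). All values are log2 cortex over cerebellum, and the regions lay on different slides at both ages. Of the kinases, Gsk3b was higher in the cortex at both ages and Csnk1e at 2 months, and Wee1 was lower at 29 months. Regions differ in their cells, as the marker sums above show.

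How the members varied together within groups was described by the correlation of their deviations from the group means. Over the 40 arrays Pearson's r was 0.69 between Per1 and Per2, -0.70 between Per2 and Arntl, -0.64 between Arntl and Dbp and 0.81 between Tef and Cry2. Over the 32 arrays of 29 months the same pairs gave 0.42, 0.14, -0.39 and 0.78. The opposite movement of Per2 and Arntl was thus carried by the 8 young arrays, of which replicate 4 of each region stood apart, whereas that of Tef and Cry2 was not. Arrays of a group share a slide and these values have no p.

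**Figure D4:**
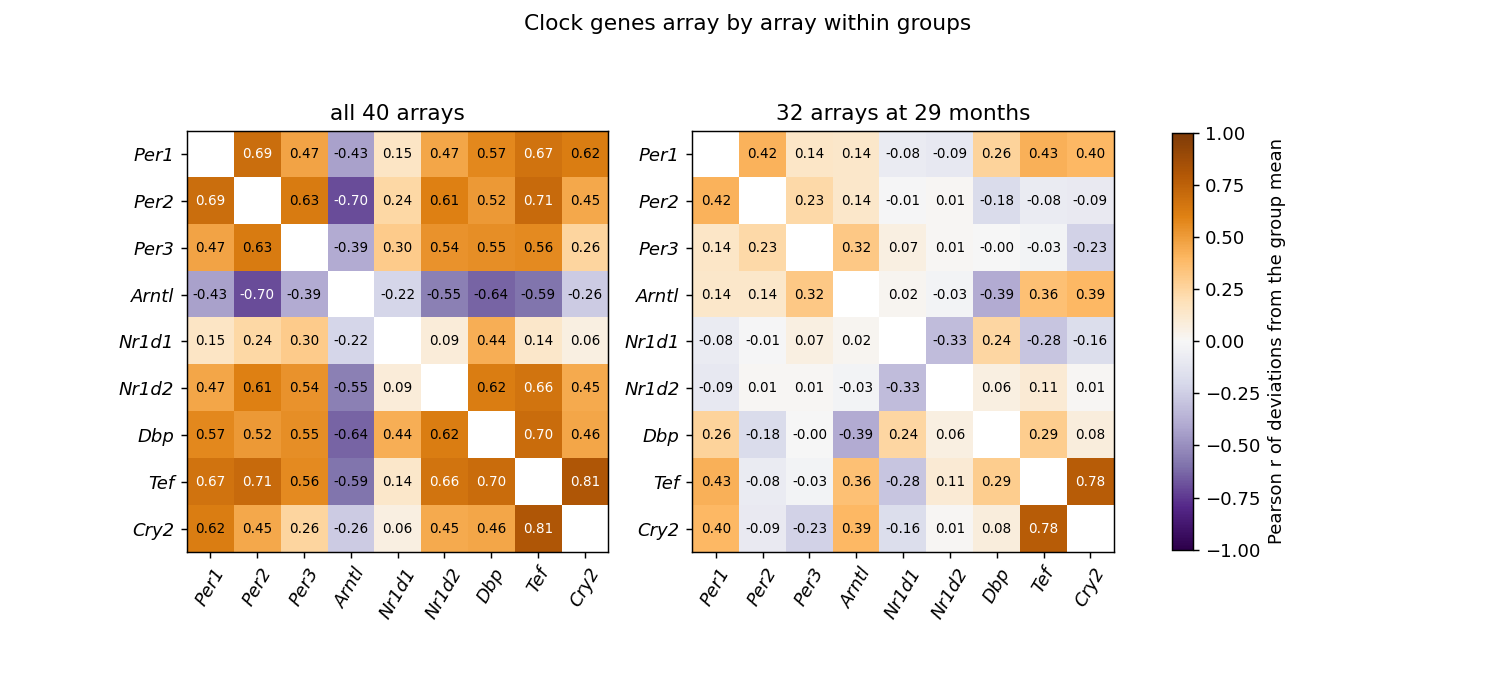
Pearson's r of the deviations from the group mean for each pair of the 9 clock genes above background on all arrays (rows and columns), over all 40 arrays (left) and over the 32 arrays of 29 months (right), with colour from -1 to 1. The pair of Per2 and Arntl goes from -0.70 to 0.14 when the young groups are left out, and the pair of Tef and Cry2 from 0.81 to 0.78.

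The heat maps of these correlations show the pairs of Arntl turning from negative toward positive without the young arrays for Per1, Per2, Per3, Tef and Cry2, and staying negative for Dbp. Across 13691 named genes above background on all arrays, those most like each member by the same measure were Bhlhe40 (r = 0.81), Ppp1r3g (0.80) and Gm129 (0.79) for Per1, and Tef (0.71), Gm129 (0.70) and Per1 (0.69) for Per2. For Per3 they were Pisd-ps1 (0.69), Prkaa2 (0.69) and AI854703 (0.65), and for Arntl they were Dab1 (0.69), 6430573F11Rik (0.69) and Leo1 (0.66). Dbp was followed by Gpr153 (0.88), Dusp3 (0.84) and Nell1 (0.83), Nr1d1 by genes that included Vars (0.89) and Rrp9 (0.84), and Nr1d2 by Aftph (0.82), Ncoa3 (0.79) and Slc30a4 (0.79). Tef was followed by Gtdc1 (0.82), Camk2g (0.82) and Gnl1 (0.82), and Cry2 by Slc45a1 (0.90), Brap (0.88) and Txnl4a (0.87). Per1 and Per2 had other clock genes among their 3 nearest. These values include the young arrays, and over the 32 arrays of 29 months Per2 gave -0.08 with Tef and 0.42 with Per1. The rank correlation of Per2 with Tef over all 40 arrays was 0.33.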

How the data were processed

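RNA of cortex and cerebellum was hybridised by the authors to one-colour Agilent mouse arrays, 40 in all. Per the file headers the spot intensities came from Feature Extraction 10.7.3.1 (10.1.1.1 in the submitters' notes), as a processed signal that is already background-corrected. The authors also deposited normalized log2 values, which matched the values computed here to a median difference of 0.00100 and were used as an alternative. Here, control spots and outlier flags were left out (95 to 148 flagged gene spots per array), spots of a probe were averaged and log2 of the processed signal was taken minus the array's 75th percentile, which left 55589 probes. The number and signal of the arrays limit the precision, and 51.4 to 61.4% of probes were well above background per array.

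Samples were grouped by their labels. One linear model over all 10 groups was fitted with limma 3.58.1 in R 4.3.3, with no block, and p-values were adjusted by Benjamini-Hochberg over the probes that every one of the 4 arrays in 1 or more of the compared groups measured well above background (a probe with several spots counted as above background on an array where at least 50% of its spots were). The thresholds of a call were 0.05 for the adjusted p and 1.5 for the fold change, and an interaction needed the first only. Shares of all probes are given for these rules and for the adjusted p alone, but not for an unadjusted p. Counts of members at an unadjusted p are therefore not read as a result about the members. The methods name 4 mice per group, so p-values measure the spread between mice of a group, pooled over all 10 groups and both regions. They do not measure the spread of the compared groups alone. The labels do not say whether samples of the same number in both regions came from the same mouse. On simulated data a 2-fold change was called for 92% of probes in the ageing comparison of the cortex and for 86% in that of the cerebellum, and a 1.5-fold change for 40% and 34%. The simulation changed randomly chosen probes and gave each probe normal noise of the same spread in all groups. Its shares therefore do not describe members whose young replicate 4 stood apart.

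The 10 genes, the lists of other clock genes and of markers and the rule for named genes (all members, then other genes of these lists where called) were chosen with earlier results of these data known. Likeness to a member was the correlation of deviations from group means over the 40 arrays. Alternatives were scaling, background correction, the authors' values, the filter, a replicate block, the samples in the fit, thresholds, the methods' t-test, the mean of all probes and leaving out each array. Promoters came from RefSeq (GRCm38.p6). Probe coordinates are those of the files (mm9). Some genes of the lists and of the likeness ranking are not reported here.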

Additional observations from a re-analysis of the deposited data

Results flagged for a closer look

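In 14 of 100 sets of 4 arrays (10 genes in 10 groups) 1 array lay far from the other 3, its gap to the nearest, as a share of the range of the group, exceeding Dixon's critical value for 4 samples, and chance alone marks about 1 in 20 groups. Of the 14 values so marked, 8 were of replicate 4 of a young group, which is 1 array in each region. In the young cortex it was at 4.96 for Cry2, 0.791 for Nr1d1, 7.10 for Tef, 5.97 for Dbp and 2.66 for Nr1d2, each time the highest of the group. In the young cerebellum it was at -2.42 for Per3 and 6.99 for Tef, the highest, and at 1.54 for Arntl, the lowest. These directions are those of the aged mean in each case, and the genes of a clock move together, so the 8 are not separate events.

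The other 6 were spread over the groups of 29 months. In wild-type mice they were Arntl at 1.49 in cortex replicate 4 on the normal diet, and, on the deficient diet, Cry2 at 4.78 in cerebellum replicate 2 and Nr1d2 at 2.39 in cortex replicate 3. In deficient Ttpa-/- mice they were Arntl at 1.95 in cerebellum replicate 1, Per3 at -2.86 in cortex replicate 3 and Npas2 at -5.94 in cerebellum replicate 2, where Npas2 was not well above background.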

How the results depend on the processing

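Of the values of single members under the alternatives, 4213 kept their side of the threshold, 64 lost it and 63 gained it. When a value was past the threshold in the reported fit or in the alternative, 0 changed direction. The direction of values past it in neither was not compared. The counts of members called were within 1.5 times of the reported count in 365 cases and moved in 69. Median scaling left 0 calls for ageing in the cortex, for deficient Ttpa-/- against normal wild-type mice in both regions and for supplemented Ttpa-/- against normal wild-type mice in the cerebellum, and it shifted the median of all probes by -0.178 to 0.178, over 0.1 in 3 comparisons. Quantile normalization gave 0 for deficient Ttpa-/- against normal wild-type mice in the cortex, 1 (Cry2) for that effect between regions and 1 (Dbp) for the genotype on the deficient diet in the cerebellum. With no filter on dim probes the counts were 0 and 1 (Cry2) for the first of these, and 0 for supplemented Ttpa-/- against normal wild-type mice in the cerebellum. Normexp background correction left 1 (Per1) for ageing in the cortex, and Per3 was lost in the cerebellum with normexp, quantile normalization and median scaling. The mean of all probes gave 1 (Per3) for ageing in the cortex and 1 (Dbp) for the genotype in the cerebellum. For Per1 that mean takes in a second probe, which was above background on 2 of 40 arrays. The compared groups alone gave 0 for ageing in both regions and 1 (Dbp) for deficient Ttpa-/- against normal wild-type mice in the cerebellum. In these fits fewer arrays estimated the spread.

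Adjusted p alone gave 4 for deficient Ttpa-/- against normal wild-type mice in the cortex, 1 for the genotype in the cortex and 6 between regions at 2 months. Unadjusted p gave 4 for ageing in the cortex, 1 for the genotype in the cerebellum, 1 and 3 for the diet of Ttpa-/- mice in cortex and cerebellum, and between regions 1 for ageing, 2 for deficient Ttpa-/- against normal wild-type mice, 2 for the genotype and 1 for the diet of Ttpa-/- mice. The methods' t-test gave 1 for the genotype in the cerebellum and 1 and 3 for the diet of Ttpa-/- mice unadjusted. Adjusted, it gave 0 for ageing in both regions, 0 for deficient Ttpa-/- against normal wild-type mice in the cerebellum and 1 (Dbp) for the diet of Ttpa-/- mice in the cortex. No share of all probes stands beside the counts at an unadjusted p, which are not read as a result about the members. Leaving out both young arrays numbered 4, chosen after seeing the data, gave 5 and 7 for ageing in cortex and cerebellum and 1 between regions.

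Leaving out 1 array at a time gave 0 to 4 and 3 to 7 for ageing in cortex and cerebellum, 0 to 1 and 1 to 2 for deficient Ttpa-/- against normal wild-type mice, 0 to 1 for the genotype in the cerebellum, 0 to 1 for supplemented Ttpa-/- against normal wild-type mice in the cerebellum, and 2 to 5 and 2 to 2 between cortex and cerebellum at 2 and 29 months. Between regions it gave 0 to 3 for ageing, 0 to 2 for deficient Ttpa-/- against normal wild-type mice, 0 to 1 for the genotype and 0 to 1 for the diet of Ttpa-/- mice. In the other comparisons it gave 0 to 0. The cause of these shifts was not tested.

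Whether numbers shared between cortex and cerebellum pair the samples is not known. The labels do not say, 13 of 20 pairs had a correlation over 0.1 (-0.162 to 0.628) and 12 correlated best with their own number, which hints at pairing in some groups but does not hold for every pair, so the fit reported has no block. The replicate block gave 1 call (Dbp) for the genotype in the cerebellum and otherwise left the members' counts within 1.5 times. Over all probes it raised the calls between regions from 364 to 549 for the genotype, from 4 to 10 for the diet of wild-type mice and from 18 to 93 for that of Ttpa-/- mice. The slide as a block could not be fitted, because each group lay on 1 slide.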
